A study of Homo sapiens with 12 samples.

Results

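The extracellular matrix genes described here are 54 listed genes for collagens, laminins, fibronectin and other matrix glycoproteins, matrix enzymes and their inhibitors, and integrins. They were chosen by symbol, and each of the 54 symbols matched 1 of the 43481 genes in the tables. The 12 libraries were made from poly-A RNA of RPE-1, an immortalised human cell line that came from retinal pigment epithelium, and fall into 4 groups of 3. Refed cells with DMA were starved of glucose and fetal calf serum (FCS) for 24 h and then given, for 4 h, 10% FCS, 5 g/l glucose and 100 µM dimethyl amiloride (DMA), an inhibitor of Na+/H+ exchange. Refed cells with C646 had the same starvation and refeeding with 10 µM C646, an inhibitor of the acetyltransferases p300 and CBP. Refed cells with solvent had the same starvation and refeeding with DMSO only, and starved cells had the 24 h starvation only. Every group therefore shares the starvation, and the inhibitors were present only during refeeding. The labels do not say whether the 3 numbered libraries of a group are separate cultures, so the p-values measure only the spread between these libraries. Of the 54 genes, 48 passed the filter on low counts and were tested.

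As background, collagens, laminins and fibronectin are secreted proteins that assemble outside the cell into fibrils and sheets. Cells hold on to them through integrins, pairs of an alpha and a beta chain that span the membrane. Lysyl hydroxylases and lysyl oxidases modify and cross-link collagen, while secreted and membrane-bound metalloproteinases cut the matrix and the TIMP proteins inhibit many of them. In the eye, the retinal pigment epithelium rests on Bruch's membrane, a layered matrix that contains laminins, type IV collagen and fibronectin. Serum supplies growth factors, and in cultured fibroblasts serum is well known to induce matrix genes such as thrombospondin-1.

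The libraries held 20262061 to 22011436 expected counts with DMA, 21929453 to 24784194 with C646, 23472623 to 28968510 with solvent and 14910516 to 23950322 in starved cells. A count of 3 corresponded to 0.104 to 0.201 CPM (counts per 1000000) of a library's expected counts before scaling, which covers counting error only. All other CPM here are scaled by TMM, a trimmed mean of log ratios between libraries. Among the solvent libraries, number 1 lay away from the others on the third principal component (13.4% of the variance). Of 12 retinal pigment epithelium markers, 6 reached 1 CPM. The 12 together summed to 38.0 to 57.5 CPM with DMA, 45.0 to 58.3 CPM with C646, 34.7 to 54.8 CPM with solvent and 82.9 to 93.8 CPM in starved cells. RPE65, RLBP1, TYR, TYRP1 and TTR, which define the differentiated tissue, had at most 0.293 CPM in any library, and PMEL had at most 0.823 CPM. The others of the list were expressed, with MITF, OTX2 and MERTK reaching 55.4, 21.9 and 18.5 CPM. BEST1, LRAT and SERPINF1 reached 3.92, 3.27 and 1.07 CPM. All 5 mesenchymal markers reached 1 CPM, summing to 4739 to 5749.5 CPM with DMA, 4598 to 5751 CPM with C646, 5197 to 5429 CPM with solvent and 5977 to 7462 CPM in starved cells. VIM alone had 4024 to 7040 CPM. Of 4 epithelial keratin and junction markers 2 reached 1 CPM, the keratins KRT8 and KRT18. CDH1 and EPCAM had at most 0.251 and 0.081 CPM. The sums of the 4 were 856 to 1244 CPM with DMA and 627 to 887 CPM with C646. They were 794 to 970.4 CPM with solvent and 587 to 866 CPM in starved cells. VIM overlaps other genes over 24.4% of its exon bases, and KRT18 shares 28.1% of its 31-base words with other genes. The blood and endothelial markers summed to 0.704 to 2.37 CPM. The part of these markers in the results below was not tested, and in bulk RNA fewer cells of a type cannot be told apart from less RNA per cell.

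The expressed genes were dominated by fibronectin, a gelatinase and a few integrin chains. Levels between genes are compared in TPM (transcript shares corrected for length and scaled to 1000000), as the median over the 12 libraries. Fibronectin (FN1), the glycoprotein that integrin alpha 5 beta 1 binds, had the highest level of the 54 genes at 2202 TPM and ranked 87 among all genes. It was followed by the gelatinase MMP2 at 1857 TPM, the shared integrin beta chain ITGB1 at 761 TPM and the laminin-binding alpha chain ITGA3 at 632 TPM. SPARC, a collagen-binding glycoprotein, stood at 541 TPM and the metalloproteinase inhibitor TIMP1 at 516 TPM. The integrin chains ITGB5 and ITGA5 had 431 and 315 TPM.

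The chains of single matrix proteins were present at unequal levels. Laminins assemble from an alpha, a beta and a gamma chain. The beta chains LAMB2, LAMB1 and LAMB3 had 249, 134 and 27.8 TPM, and the gamma chain LAMC1 had 83.7 TPM. The leading LAMB2 transcript held 15.8% to 26.3% of its gene's TPM, and the leading LAMB1 transcript 39.7% to 66.1%. In CPM, which is not corrected for length, the mean of LAMB1 was above that of LAMB2 in all 4 groups. These means were nearly equal with C646, at 323 and 322 CPM. The alpha chains were lower, with LAMA4 at 17.4 TPM and LAMA5, LAMA1 and LAMA3 at 1.83, 1.43 and 1.20 TPM. Of the fibrillar collagens, which form the fibres of connective tissue, COL5A2 had 11.0 TPM and COL1A1 had 1.79 TPM. COL1A2, COL3A1, COL5A1 and COL11A1 failed the filter, with at most 3, 5, 1 and 11 expected counts in a library and 0 in at least 1 library each. COL6A2 and TIMP3 failed it too, with at most 2 and 3 expected counts. TIMP3 is an inhibitor known from Bruch's membrane, and COL6A2 encodes a chain that assembles with COL6A1 and COL6A3 into type VI collagen. COL6A3 had 6.66 TPM and COL6A1 had 0.617 TPM, so of the 3 chains listed COL6A3 alone exceeded 1 TPM. The nonfibrillar collagens COL8A1, COL12A1 and COL13A1, with 140, 57.9 and 48.1 TPM, were the most abundant collagens here by TPM. COL4A2 was close to COL13A1, at 40.7 TPM. The COL13A1 level is a sum over 14 transcripts, and the leading one held 8.56% to 29.2% of it. In CPM, which is not corrected for length, COL4A2 stood above COL13A1 in all 4 groups.

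**Figure D1:**
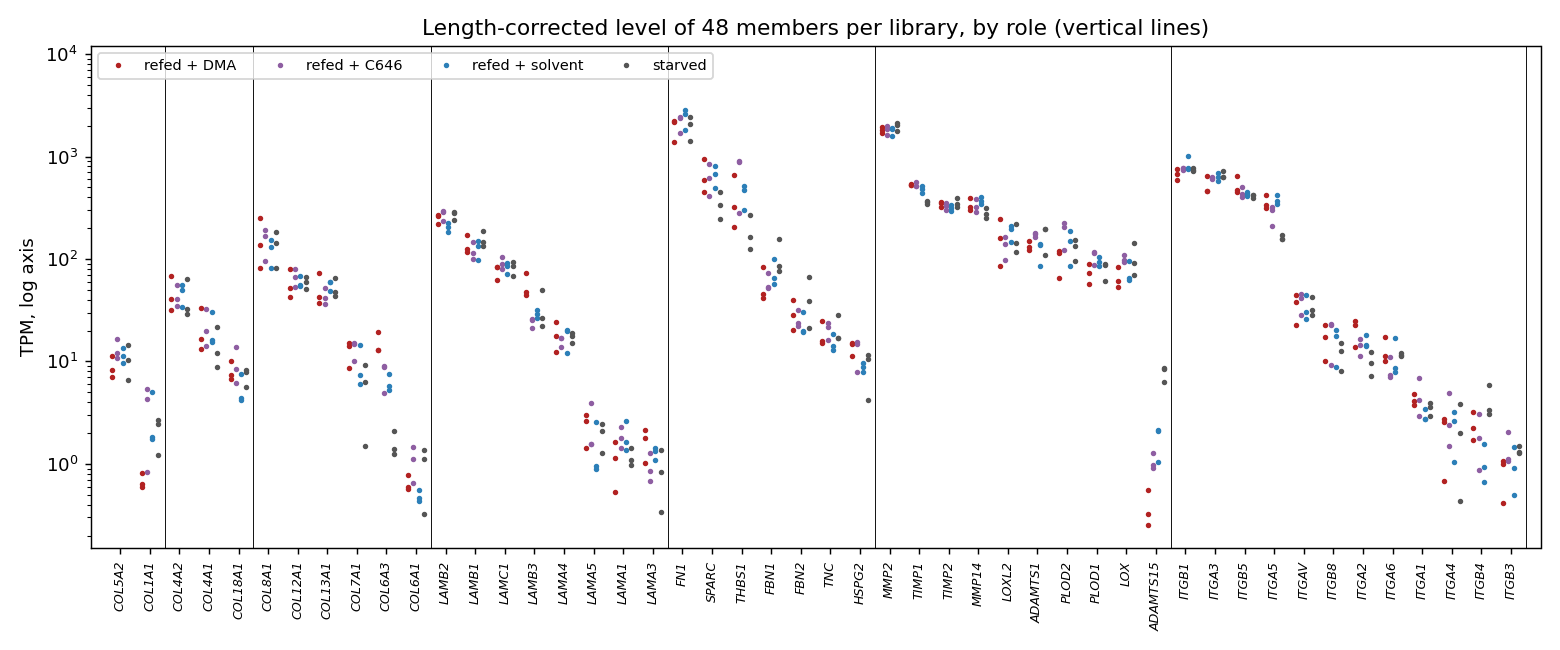
Level of the 48 tested genes in TPM (log axis), 1 point per library, coloured by group and ordered by role and median. Fibronectin and MMP2 are the highest points of the plot, while ADAMTS15 spreads between 0.251 TPM with DMA and 8.62 TPM in starved cells.

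COL4A1 and COL4A2 encode the chains of the common type IV collagen of basement membranes and lie head to head on chromosome 13. In GENCODE 29 on GRCh38, COL4A1 spans chr13:110148963-110307233 on the minus strand and COL4A2 spans chr13:110305812-110513209 on the plus strand. Their RefSeq start sites have 126 bases between them, and the 250 bases upstream of each share 226 bases. The sequence between the starts, chr13:110307158-110307283 of GRCh38.p14 from RefSeq, is printed on the plus strand because this short stretch precedes both RefSeq starts. By those starts COL4A1 lies to its left and COL4A2 to its right. The GENCODE 29 spans above overlap, and by them the stretch lies within COL4A2 and partly within COL4A1.
COL4A1 and COL4A2: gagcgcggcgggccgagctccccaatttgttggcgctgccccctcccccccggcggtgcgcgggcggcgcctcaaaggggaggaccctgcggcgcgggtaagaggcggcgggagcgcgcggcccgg
The length-corrected level of COL4A2 was 40.7 TPM and that of COL4A1 was 16.5 TPM. COL4A1 had 157, 77.9 and 63.7 CPM with DMA, 154, 90.8 and 66.5 with C646, 138, 73.1 and 77.0 with solvent and 99.1, 40.5 and 63.1 in starved cells (libraries 1, 2 and 3 in that order here and below). COL4A2 had 281, 120.4 and 165 CPM with DMA, 229.8, 137 and 155 with C646, 195, 113 and 182 with solvent and 249, 114 and 138 in starved cells. In all 4 groups library 1 was the highest for both genes, and the groups overlapped. Neither gene passed the test in any of the 6 comparisons without a replicate block, and COL4A1 passed with it for DMA and for C646 against starved cells, as given with those comparisons. With the block COL4A1 also passed for solvent against starved cells, which are not counted as paired, as given at the end.

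Refeeding with solvent, set against starvation, asks what serum and glucose change. COL6A3, the integrin alpha 5 gene ITGA5, SPARC and THBS1 were higher in refed cells, while the proteoglycan-cutting metalloproteinase ADAMTS15, the laminin chains LAMB1 and LAMB2 and the integrin chain ITGB4 were lower. Of the 48 genes tested, 7 rose and 4 fell, which is 22.9%, beside 24.3% of all 15263 genes tested (12.6% higher and 11.7% lower). The median log2 fold change of the 48 was -0.01 and that of all genes 0.00. The share of calls was thus near that of all genes, and 13 of the 48 had an unadjusted p under 0.05. Calls are those with a Benjamini-Hochberg adjusted p under 0.05 over all genes tested, by edgeR's quasi-likelihood test. Overlap between the libraries of compared groups is given as a description only. The share of all genes without overlap was not computed, so a lack of overlap adds no support to a call.

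**Figure D2:**
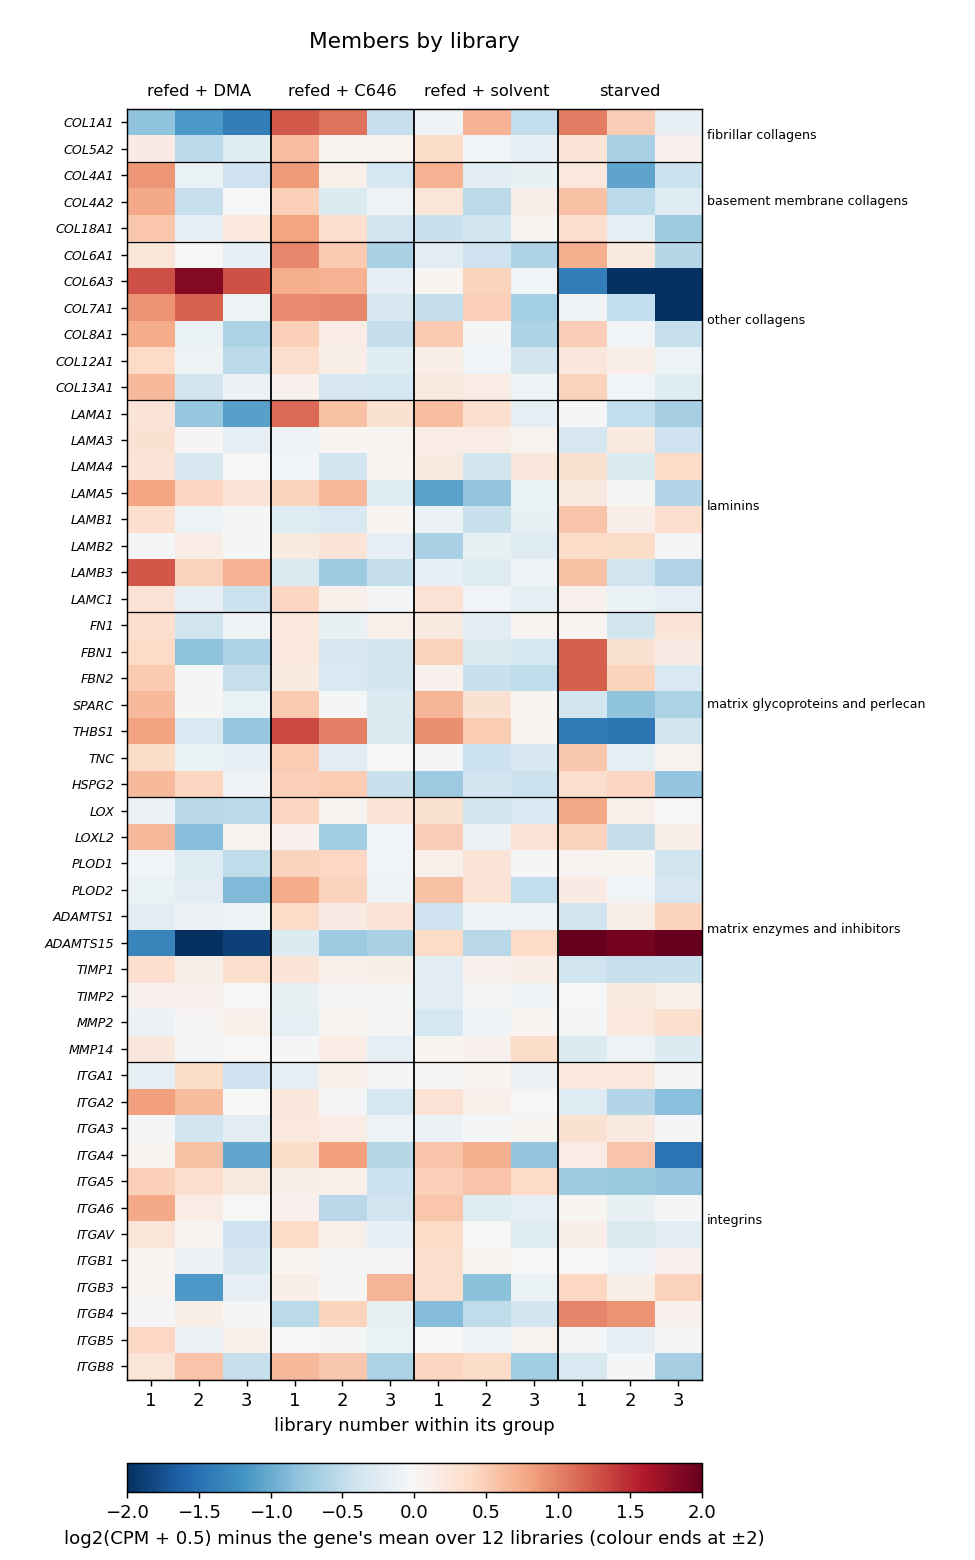
Log2(CPM + 0.5) of the 48 tested genes in each library, minus the gene's mean over the 12 libraries, with genes grouped by role and colours ending at 2 on either side. COL6A3 is high with DMA and low in starved cells and ADAMTS15 shows the opposite, while many collagens and glycoproteins are highest in library 1 of each group.

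COL6A3, the chain of type VI collagen whose cleaved end is known as endotrophin, spans chr2:237324003-237414375 on the minus strand of GRCh38. It had 37.4, 49.7 and 35.1 CPM in the solvent libraries, against 13.6, 6.11 and 7.41 CPM in the starved libraries, with no overlap. The means were 40.7 ± 7.87 and 9.04 ± 4.00 CPM (SD, n = 3 each), a log2 fold change of 2.16 ± 0.32 (SE, edgeR adjusted p = 5.3e-04). ITGA5, which pairs with ITGB1 as the fibronectin receptor, spans chr12:54395261-54419460 on the minus strand. It had 855, 913 and 813 CPM with solvent, against 375, 369 and 359 CPM in starved cells. The starved libraries lay within a narrow band well below all solvent libraries, and the log2 fold change was 1.23 ± 0.14 (edgeR adjusted p = 9.7e-05). ITGB1, its partner, had 2418, 1985 and 1882 CPM with solvent, against 1897, 1806 and 2025 CPM in starved cells, which overlap, and FN1, its ligand, had 9072, 6900.3 and 8353 CPM, against 8341, 6203 and 9522 CPM. Their log2 fold changes were 0.13 ± 0.12 (edgeR adjusted p = 0.47) and 0.02 ± 0.20 (edgeR adjusted p = 0.96).

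THBS1 encodes thrombospondin-1, a secreted glycoprotein that binds cells and can activate latent TGF-beta, and spans chr15:39581079-39599466 on the plus strand. It had 2184, 1631 and 1184 CPM with solvent, against 431, 419.6 and 883 CPM in starved cells. The groups did not overlap, but both spread widely, and the log2 fold change was 1.53 ± 0.48 (edgeR adjusted p = 0.035). This call was lost without starved library 1 or 2 or solvent library 1 or 2 (edgeR adjusted p = 0.068 to 0.13), and without a filter on low counts (edgeR adjusted p = 0.15). It was also lost with the replicate block, as given at the end. SPARC had 711, 545 and 455 CPM with solvent, against 345, 254 and 284 CPM in starved cells, with no overlap and a log2 fold change of 0.96 ± 0.24 (edgeR adjusted p = 0.013). Without starved library 2 or solvent library 1 the adjusted p by edgeR was 0.06 or 0.058, and without a filter on low counts it was 0.065.

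The promoters of the 4 genes with the largest rises that are in the RefSeq promoter table, out of the 39 of 54 genes found there, are shown for reference, since these genes rose together. Each is the 250 bases before the RefSeq start site on GRCh38.p14, printed 5′ to 3′ on the gene's own strand. They are chr2:237414165-237414414 (minus strand) for COL6A3, chr12:54419267-54419516 (minus) for ITGA5, chr15:39580829-39581078 (plus) for THBS1 and chr5:151686916-151687165 (minus) for SPARC. The starts differ between annotations. By the GENCODE spans the SPARC window lies wholly within its gene, and the ITGA5 and COL6A3 windows lie mostly within theirs. The THBS1 window lies outside its gene by both annotations. Capitals mark GGAATG, the core sequence bound by TEAD factors, on either strand. By the GENCODE spans the capitals in ITGA5 and SPARC lie within the gene.
COL6A3: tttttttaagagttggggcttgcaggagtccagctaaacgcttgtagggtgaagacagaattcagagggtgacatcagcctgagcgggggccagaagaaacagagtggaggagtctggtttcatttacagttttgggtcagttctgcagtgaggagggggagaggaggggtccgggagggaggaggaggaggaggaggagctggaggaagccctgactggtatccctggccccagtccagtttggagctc
ITGA5: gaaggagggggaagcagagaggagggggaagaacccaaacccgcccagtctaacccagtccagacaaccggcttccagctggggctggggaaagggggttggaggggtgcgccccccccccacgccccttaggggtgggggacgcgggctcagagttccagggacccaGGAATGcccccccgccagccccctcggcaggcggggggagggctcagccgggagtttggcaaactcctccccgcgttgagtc
THBS1: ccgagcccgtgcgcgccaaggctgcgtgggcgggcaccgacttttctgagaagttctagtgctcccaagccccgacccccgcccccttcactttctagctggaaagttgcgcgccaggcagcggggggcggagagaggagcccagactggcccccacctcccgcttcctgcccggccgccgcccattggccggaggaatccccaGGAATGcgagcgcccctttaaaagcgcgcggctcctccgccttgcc
SPARC: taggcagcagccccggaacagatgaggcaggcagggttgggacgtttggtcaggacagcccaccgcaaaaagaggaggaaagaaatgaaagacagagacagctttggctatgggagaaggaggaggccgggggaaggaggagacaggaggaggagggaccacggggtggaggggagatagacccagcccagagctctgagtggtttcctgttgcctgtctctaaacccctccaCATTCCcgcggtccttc
The match reads GGAATG in ITGA5 and THBS1 and its reverse complement in SPARC, and these letters do not occur in the COL6A3 window. Of the 39 promoters, 6 (15.4%) held GGAATG on either strand, beside 11.9% of 34943 promoters of the same length. The AP-1 letters TGANTCA were in 1 of the 39, LAMA3, beside 6.59% of all promoters. The letters TATAAA were in 4, namely ITGA6, COL7A1, COL13A1 and COL6A2, beside 10.8% of all. The 3 motifs were searched on both strands, none contains another, and a match describes the letters only.

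Smaller rises on refeeding were seen in TIMP1, in MMP14, the membrane protease that activates the MMP2 proenzyme, and in ITGA2, the collagen-binding integrin alpha chain. TIMP1 had 119, 147 and 152 CPM with solvent, against 106, 101 and 102 CPM in starved cells, so every solvent library lay above the tight starved group (log2 fold change 0.43 ± 0.11, edgeR adjusted p = 0.013). ITGA2 had 106, 93.1 and 87.3 CPM with solvent, against 72.6, 58.1 and 48.6 CPM in starved cells (log2 fold change 0.67 ± 0.21, edgeR adjusted p = 0.034). MMP14 had 806, 823 and 996 CPM with solvent, against 641, 723 and 642 CPM in starved cells (log2 fold change 0.39 ± 0.13, edgeR adjusted p = 0.039). In each of these genes all solvent libraries lay above all starved ones. None of the 3 calls held in every fit that left out a library. TIMP1 was lost without starved library 2 or solvent library 2 or 3 (edgeR adjusted p = 0.051 to 0.055), and ITGA2 without starved library 2 or 3 or solvent library 1 or 2 (edgeR adjusted p = 0.067 to 0.11). MMP14 was lost without any starved library or solvent library 2 or 3 (edgeR adjusted p = 0.055 to 0.16). Without a filter on low counts ITGA2 was lost (edgeR adjusted p = 0.059), and with only these groups in the fit MMP14 was (edgeR adjusted p = 0.063).

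ADAMTS15, a secreted protease of proteoglycans such as versican and aggrecan, had the largest fall of the 48 genes on refeeding. It spans chr11:130448974-130476641 on the plus strand and has 1 transcript in the tables. It had 8.54, 4.21 and 8.58 CPM with solvent, against 34.2, 25.4 and 38.9 CPM in starved cells. No solvent library reached the starved ones, and the log2 fold change was -2.20 ± 0.31 (edgeR adjusted p = 3.0e-04). Its family member ADAMTS1 had 235, 296 and 290.2 CPM with solvent, against 238, 344 and 424 CPM in starved cells, and did not pass the test (edgeR adjusted p = 0.23).

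LAMB1 and LAMB2, alternative laminin beta chains, were both lower in refed cells. LAMB1 had 335, 266 and 327 CPM with solvent, against 537, 396 and 457 CPM in starved cells (log2 fold change -0.58 ± 0.15, edgeR adjusted p = 0.015). LAMB2 had 191, 270.5 and 251 CPM with solvent, against 391, 387 and 294 CPM in starved cells (log2 fold change -0.59 ± 0.16, edgeR adjusted p = 0.015). ITGB4, the beta chain of the laminin receptor in hemidesmosomes, was scarce in both groups, with 1.23, 1.71 and 1.95 CPM with solvent, against 5.68, 5.40 and 2.85 CPM in starved cells (log2 fold change -1.52 ± 0.35, edgeR adjusted p = 0.0075). The libraries of the groups did not overlap in these genes, which were chosen by their calls. These falls are relative to the other genes. With libraries scaled to the spike-in control sequences, which raised the median log2 fold change of all genes to 0.60, LAMB1 stood at -0.00, LAMB2 at 0.07 and ITGB4 at -0.85, none past the threshold, while ADAMTS15 stayed lower at -1.71 (edgeR adjusted p = 7.9e-04). Under that scaling 11 of the 48 genes were higher and 1 was lower, beside 7 and 4 under TMM. Of all genes 22.4% were called with it, 21.1% higher and 1.24% lower. The spike-in share of the counts varied within groups. It was 1.06%, 0.527% and 0.663% with solvent and 1.28%, 0.959% and 0.872% in starved cells. The SE of LAMB1 was 0.34 under this scaling, beside 0.15 under TMM, so a lost call there is not a measured lack of change. LAMB1 also lost its call without starved library 1 or solvent library 2 (edgeR adjusted p = 0.073 and 0.070), and LAMB2 without starved library 1 or 2 or solvent library 1 (edgeR adjusted p = 0.06 to 0.065).

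**Figure D3:**
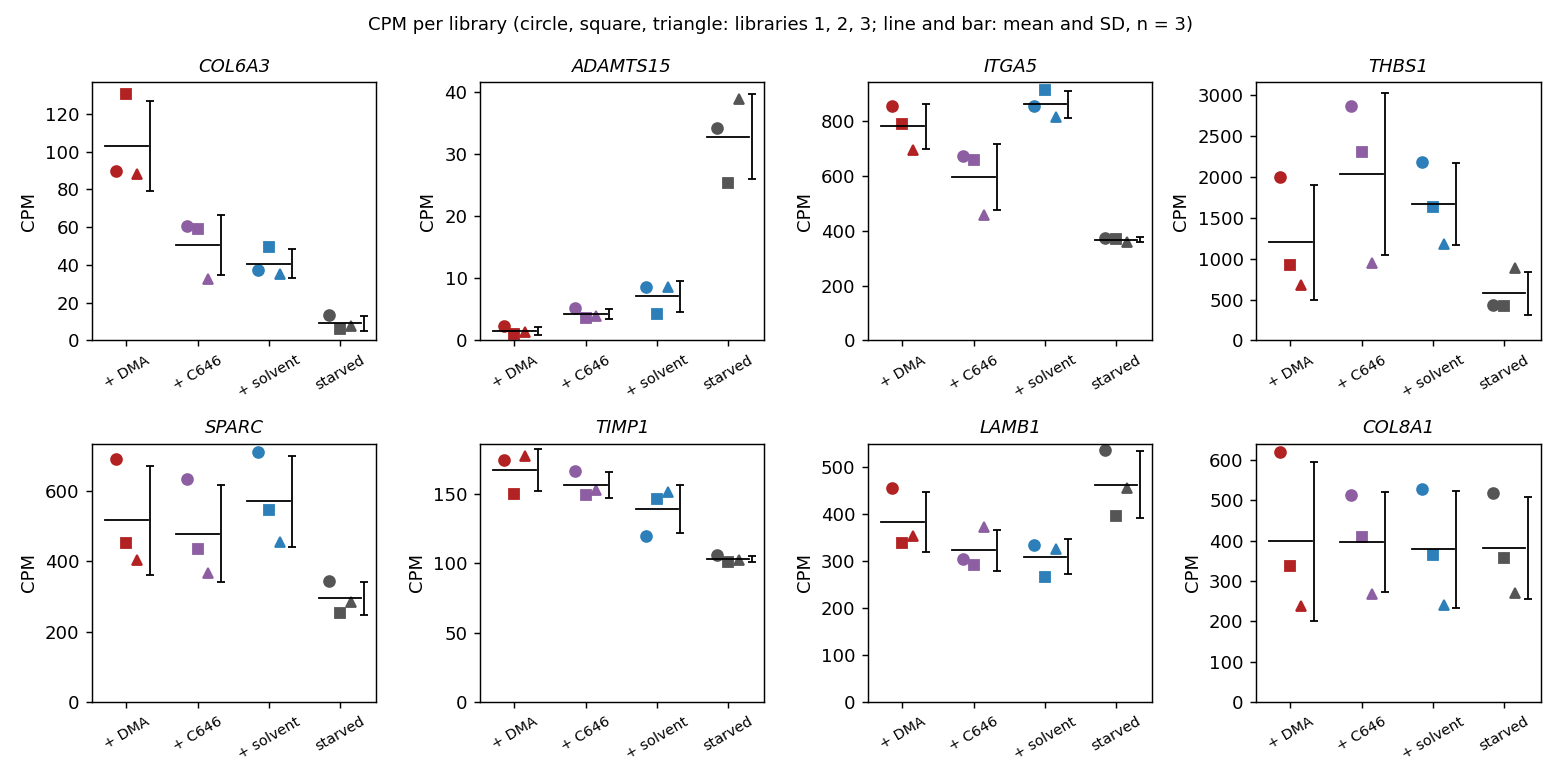
CPM of 8 genes in each library (circle, square and triangle for libraries 1, 2 and 3), with the mean as a line and the SD as a bar (n = 3), for refed cells with DMA, with C646, with solvent and for starved cells. COL6A3 is highest and ADAMTS15 lowest with DMA, and COL8A1 orders its libraries alike in every group.

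DMA during refeeding, set against solvent, asks what adding this inhibitor changes. COL6A3 rose and ADAMTS15 fell, 2 genes or 4.17% of the 48 genes, beside 1.75% of all genes tested (0.734% higher and 1.02% lower). In all, 10 of the 48 had an unadjusted p under 0.05, and the median log2 fold change was 0.04, beside 0.01 for all genes. COL6A3 had 89.8, 131 and 88.3 CPM with DMA, against 37.4, 49.7 and 35.1 CPM with solvent. All DMA libraries lay above all solvent libraries, with means of 103 ± 23.9 and 40.7 ± 7.87 CPM (SD, n = 3 each) and a log2 fold change of 1.34 ± 0.30 (edgeR adjusted p = 0.044). Between libraries of the same number the log2 ratio was 1.25, 1.38 and 1.32. ADAMTS15 had 2.26, 1.03 and 1.38 CPM with DMA, against 8.54, 4.21 and 8.58 CPM with solvent. The groups did not overlap, and the log2 fold change was -2.20 ± 0.34 (edgeR adjusted p = 0.015). This comparison shares the solvent libraries with that of refeeding. COL6A3 lost its call in each of the 6 fits that left out 1 library (edgeR adjusted p = 0.053 without DMA library 1 to 0.18 without solvent library 1) and without a filter on low counts (edgeR adjusted p = 0.14). ADAMTS15 lost it without solvent library 1 (edgeR adjusted p = 0.063) or DMA library 2 (edgeR adjusted p = 0.076), and with only these groups in the fit (edgeR adjusted p = 0.069). Calls over all genes moved as well. From 267 in the full fit they went to 8 without solvent library 1, 1 without DMA library 2 and 31 with only these groups. The highest count without a library was 286, without DMA library 1.

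With the library number as a block, 9 of the 48 genes passed in the comparison of DMA with solvent, beside 2 without it. Over all genes tested the block called 10.2% there (4.76% higher and 5.46% lower). The 4 higher genes were LAMA5, COL6A3, ITGA2 and LAMB3, and the 5 lower ones were PLOD1, LAMA1, COL1A1, PLOD2 and ADAMTS15. LAMB3, a chain of the epithelial laminin that anchors hemidesmosomes, had 171, 100.0 and 117 CPM with DMA, against 64.5, 60.1 and 69.1 CPM with solvent. All DMA libraries were above all solvent ones, with a log2 fold change of 1.00 ± 0.28 (edgeR adjusted p = 0.081, and 0.015 with the block). LAMA5, an alpha chain of basement membrane laminins, had 5.63, 4.29 and 3.80 CPM with DMA, against 1.19, 1.58 and 2.72 CPM with solvent (log2 fold change 1.32 ± 0.37, edgeR adjusted p = 0.083, and 0.041 with the block). COL1A1, the alpha 1 chain of type I collagen, had 1.96, 1.43 and 1.14 CPM with DMA, against 3.58, 6.46 and 2.55 CPM with solvent (log2 fold change -1.47 ± 0.51, edgeR adjusted p = 0.14, and 0.016 with the block). Neither of these genes overlapped between the groups, and both were low.

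The lysyl hydroxylases PLOD1 and PLOD2, which modify collagen lysines in the endoplasmic reticulum, passed with the block and not without it. PLOD2 had 298, 279 and 177 CPM with DMA, against 489.5, 396 and 231 CPM with solvent, which overlap (log2 fold change -0.57 ± 0.28, edgeR adjusted p = 0.3, and 0.0091 with the block). PLOD1 had 153, 133 and 111 CPM with DMA, against 169, 189 and 154 CPM with solvent (log2 fold change -0.37 ± 0.17, edgeR adjusted p = 0.25, and 0.025 with the block), and no DMA library reached a solvent one. The laminin alpha chain LAMA1 and ITGA2 had blocked log2 values of -0.83 and 0.36 (edgeR adjusted p = 0.021 and 0.049). With the block and without solvent library 1, 1 gene was higher and 5 were lower, and COL6A3, LAMA5 and ITGA2 were not among the calls (edgeR adjusted p = 0.07, 0.18 and 0.21). Spike-in scaling left the same 1 higher and 1 lower gene as TMM, beside 0.596% of all genes (0.557% higher and 0.0393% lower), while the all-gene median stood at 0.22.

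**Figure D4:**
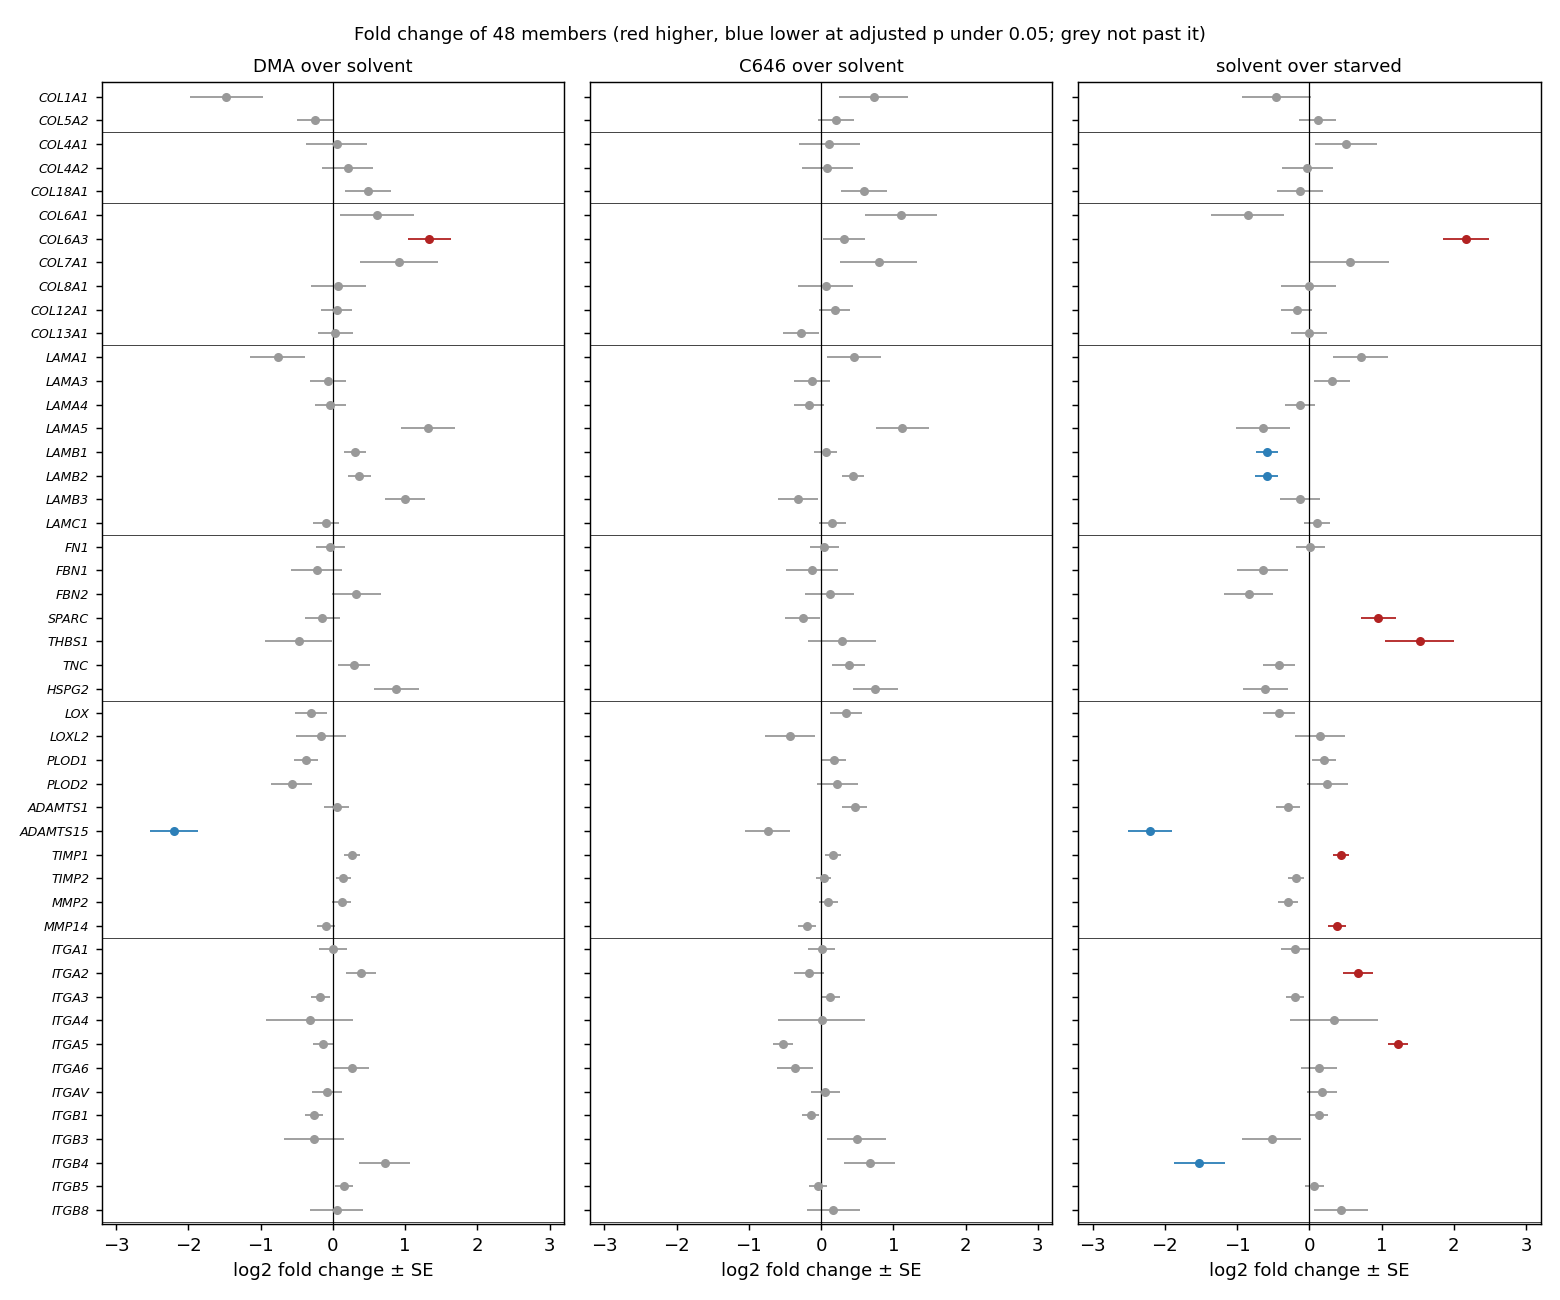
Log2 fold change ± SE of the 48 tested genes for DMA over solvent, C646 over solvent and solvent over starved cells, red where higher and blue where lower at an adjusted p under 0.05. COL6A3 and ADAMTS15 are coloured for DMA, no gene is coloured for C646, and 11 are coloured for refeeding.

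C646 during refeeding gave no call among the 48 genes by edgeR, beside 1.21% of all genes tested (0.812% higher and 0.4% lower), with 7 genes at an unadjusted p under 0.05. DESeq2 called 1, ITGA5, beside 5.56% of all genes. The median log2 fold change of the 48 was 0.12, beside 0.01 for all genes. ITGA5 had 674, 659 and 458 CPM with C646, against 855, 913 and 813 CPM with solvent. Every C646 library lay below every solvent library, with means of 597 ± 121 and 860.1 ± 50.5 CPM (SD, n = 3 each) and a log2 fold change of -0.53 ± 0.14 (edgeR adjusted p = 0.078). With the library number as a block 4 of the 48 genes passed, which is near the 7.86% of all genes called with it (4.12% higher and 3.73% lower). TNC, the glycoprotein tenascin C, and LOX, a collagen cross-linking oxidase, were higher by 0.36 and 0.37 on the log2 scale (edgeR adjusted p = 0.039 and 0.047 with the block). ITGA5 fell by 0.54 and ADAMTS15 fell by 0.69 (edgeR adjusted p = 0.0099 and 0.0497 with the block). Without solvent library 1 the blocked fit called only ITGA5 of the 48, and TNC, LOX and ADAMTS15 lost their calls (edgeR adjusted p = 0.20, 0.084 and 0.16).

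Without the block, COL6A3 and ADAMTS15 did not pass the test with C646 against solvent. COL6A3 had 60.7, 59.1 and 32.4 CPM with C646, overlapping the solvent libraries (log2 fold change 0.32 ± 0.30, edgeR adjusted p = 0.64). ADAMTS15 had 5.22, 3.67 and 3.88 CPM with C646, with library 1 above the lowest solvent library (log2 fold change -0.74 ± 0.31, edgeR adjusted p = 0.25, and 0.0497 with the block). FN1 stood at 9266, 7197 and 8625 CPM with C646 and 10059, 6057 and 7619.6 CPM with DMA, and ITGB1 at 1953, 1879.7 and 1852 CPM with C646 and 1949.6, 1750.3 and 1526 CPM with DMA. Neither FN1 nor ITGB1 passed the test against solvent with either inhibitor.

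The direct comparison of DMA with C646 asks how the inhibitors differ during the same refeeding. LAMB3 was higher with DMA than with C646, and COL1A1 and ADAMTS15 were lower, 3 genes or 6.25% of the 48, beside 2.89% of all genes tested (0.943% higher and 1.95% lower). LAMB3 had 171, 100.0 and 117 CPM with DMA, against 58.8, 44.2 and 51.6 CPM with C646 (log2 fold change 1.33 ± 0.28, edgeR adjusted p = 0.026). COL1A1 had 1.96, 1.43 and 1.14 CPM with DMA, against 9.53, 8.67 and 2.61 CPM with C646 (log2 fold change -2.20 ± 0.51, edgeR adjusted p = 0.039). ADAMTS15 had 2.26, 1.03 and 1.38 CPM with DMA, against 5.22, 3.67 and 3.88 CPM with C646 (log2 fold change -1.46 ± 0.34, edgeR adjusted p = 0.038). The libraries of the inhibitors did not overlap in these genes, which were chosen by their calls. Each call was lost in 5 of 6 fits that left out a library. COL1A1 kept it only without C646 library 3, ADAMTS15 only without DMA library 1 and LAMB3 only without DMA library 2 (edgeR adjusted p = 0.056 to 0.14 in the other fits). Over all genes these 6 fits called 180 to 316, beside 441 with all libraries. Without a filter on low counts COL1A1 and LAMB3 were lost (edgeR adjusted p = 0.068 and 0.11), and with only these groups in the fit COL1A1 and ADAMTS15 were (edgeR adjusted p = 0.077 and 0.097).

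With the block, 11 of the 48 genes differed between DMA and C646, beside 9.81% of all genes (3.96% higher and 5.85% lower). Higher with DMA were the integrin alpha chains ITGA2, ITGA5 and ITGA6, together with COL6A3 and LAMB3. Lower with DMA were the collagen-modifying enzymes PLOD1, PLOD2 and LOX, together with COL1A1, LAMA1 and ADAMTS15. COL6A3 differed by 1.02 on the log2 scale without the block (edgeR adjusted p = 0.088) and by 1.06 with it (edgeR adjusted p = 0.033). PLOD2 had 298, 279 and 177 CPM with DMA, against 546, 450.3 and 305 CPM with C646, and LOX had 167, 123 and 125 CPM with DMA, against 243, 189 and 217 CPM with C646. Neither gene overlapped between the inhibitors, and their blocked log2 values were -0.78 (edgeR adjusted p = 7.2e-04) and -0.66 (edgeR adjusted p = 0.0021). LAMA1 had 7.08, 3.22 and 2.47 CPM with DMA, against 13.4, 9.03 and 7.31 CPM with C646, and ITGA2 had 154, 136 and 86.9 CPM, against 102, 84.7 and 68.2 CPM. LAMA1 did not overlap and ITGA2 did, with blocked log2 values of -1.29 (edgeR adjusted p = 0.0015) and 0.55 (edgeR adjusted p = 0.0071). Under spike-in scaling 1 gene was higher and 1 lower with DMA than with C646, beside 1 and 2 under TMM, and ADAMTS15 lost its call (edgeR adjusted p = 0.12). Of all genes 0.786% were called with it, 0.347% higher and 0.439% lower.

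Cells refed with an inhibitor were also set against starved cells. These comparisons share the starved libraries with each other and with the comparison of solvent, so their values stand side by side. Refed cells with DMA differed from starved cells in 10 of the 48 genes (20.8%), 6 higher and 4 lower, beside 26.9% of all genes tested (13.9% higher and 13% lower). Refed cells with C646 differed in 7 (14.6%), 5 higher and 2 lower, beside 24.6% of all genes (12.9% higher and 11.7% lower). The log2 fold change of COL6A3 over starved cells was 3.50 ± 0.33 with DMA, 2.48 ± 0.32 with C646 and 2.16 ± 0.32 with solvent (edgeR adjusted p = 3.0e-05, 2.3e-04 and 5.3e-04). That of ADAMTS15 was -4.40 ± 0.35 with DMA, -2.94 ± 0.32 with C646 and -2.20 ± 0.31 with solvent (edgeR adjusted p = 6.5e-06, 4.9e-05 and 3.0e-04). ITGA5 was higher than in starved cells by 1.09 with DMA, 0.70 with C646 and 1.23 with solvent, and TIMP1 by 0.70, 0.60 and 0.43 in the same order. These 4 genes passed the test in all 3 comparisons, and with DMA and with C646 their calls held without any 1 library.

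The other calls against starved cells, without the block, were made for some of the refed groups. ITGA2 and SPARC had log2 fold changes of 1.07 and 0.81 with DMA (edgeR adjusted p = 0.0029 and 0.026), and of 0.51 and 0.70 with C646 (edgeR adjusted p = 0.099 and 0.051). With the block both also passed with C646 (edgeR adjusted p = 0.0026 and 3.3e-04). THBS1 had a log2 fold change of 1.06 with DMA (edgeR adjusted p = 0.12) and of 1.82 with C646 (edgeR adjusted p = 0.017). LAMB3 rose with DMA by 0.88, and COL1A1, LOX and ITGA3 fell by 1.93, 0.72 and 0.37 (edgeR adjusted p = 0.033, 0.014, 0.031 and 0.046). With C646, LAMA1 rose by 1.17 and LAMB1 fell by 0.52 (edgeR adjusted p = 0.039 and 0.027). Each call in this paragraph except that of ITGA2 was lost in at least 2 fits that left out a library (edgeR adjusted p = 0.0505 to 0.17 in those fits). The libraries were starved 1, 2 or 3 or DMA 1, 2 or 3 for the calls with DMA, and starved 1, 2 or 3 or C646 1 or 2 for those with C646. Without a filter on low counts LOX, SPARC and LAMB3 lost their calls with DMA (edgeR adjusted p = 0.094, 0.12 and 0.13) and THBS1 lost its call with C646 (edgeR adjusted p = 0.085). With only the groups compared in the fit, ITGA3 and LAMB3 lost theirs with DMA (edgeR adjusted p = 0.091 and 0.10).

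The block raised the calls against starved cells to 18 with DMA, 10 higher and 8 lower, and to 18 with C646, 13 higher and 5 lower. Both counts are near the shares of all genes called with the block, 38.7% with DMA (19.2% higher and 19.5% lower) and 36.2% with C646 (18.4% higher and 17.8% lower). Among the added genes, COL7A1, the anchoring fibril collagen, had 32.3, 39.2 and 15.8 CPM with DMA, 33.3, 33.8 and 13.5 CPM with C646 and 16.1, 11.9 and 2.99 CPM in starved cells. Its blocked log2 values over starved cells were 1.56 with DMA (edgeR adjusted p = 0.002) and 1.43 with C646 (edgeR adjusted p = 0.0034). FBN1, the microfibril protein fibrillin-1, had 412, 179 and 204 CPM with DMA, 362, 248 and 242 CPM with C646 and 718, 388 and 351 CPM in starved cells. Its blocked log2 values were -0.89 with DMA and -0.72 with C646 (edgeR adjusted p = 6.4e-05 and 3.4e-04). Both genes overlapped starved cells in each comparison. COL4A1 had blocked log2 values of 0.53 with DMA and 0.62 with C646 (edgeR adjusted p = 0.023 and 0.011). FBN2, the related fibrillin-2, had -0.46 with DMA and -0.63 with C646 (edgeR adjusted p = 0.029 and 0.0066), and ITGB8, a beta chain that pairs with alpha v, had 0.44 and 0.53 (edgeR adjusted p = 0.028 and 0.013). Refed cells with solvent stood at 0.56 for COL7A1, -0.65 for FBN1, 0.51 for COL4A1, -0.84 for FBN2 and 0.44 for ITGB8 on the log2 scale over the same starved cells, without the block (edgeR adjusted p = 0.5, 0.21, 0.42, 0.095 and 0.43). These unblocked values are not a like comparison for the blocked ones. With the block, COL4A1, FBN1 and FBN2 passed with solvent too, with values given at the end, and COL7A1 and ITGB8 did not. Solvent and starved libraries are not counted as paired. None of these 5 genes passed against solvent with either inhibitor, with or without the block. The other added genes were ITGA6, higher, and ITGB3 and PLOD2, lower, with DMA, and LAMC1, PLOD1 and PLOD2, higher, and ITGB4, lower, with C646. Scaled to the spike-in sequences, 21 genes were higher and 2 lower than in starved cells with DMA, and 21 were higher and 1 lower with C646. Of all genes 43.1% were called with it for DMA (42.2% higher and 0.884% lower) and 34.2% for C646 (33.4% higher and 0.812% lower), while the median of all genes stood at 0.81 and 0.73. Under that scaling LOX and ITGA3 with DMA and LAMB1 with C646 turned to positive values that did not pass the test, and FBN1 stood at -0.08 with DMA and -0.04 with C646.

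Of the 48 genes, 32 passed in none of the 6 comparisons without the block, and 22 passed in none of the 5 comparisons counted as paired with it. They include the most abundant matrix and receptor genes, FN1 and ITGB1, as well as TIMP2, LOXL2 and the gene of perlecan, HSPG2, a large heparan sulfate proteoglycan of basement membranes. HSPG2 had 83.9, 72.5 and 51.1 CPM with DMA, 74.4, 76.3 and 39.2 CPM with C646, 32.2, 40.8 and 39.8 CPM with solvent and 68.4, 72.0 and 31.1 CPM in starved cells. All DMA libraries lay above all solvent ones, with a log2 fold change of 0.88 ± 0.31 (edgeR adjusted p = 0.15, and 0.051 with the block). TIMP2, an inhibitor that also takes part in MMP2 activation, had 902, 905 and 848 CPM with DMA, 766, 867 and 831 CPM with C646, 726, 870.5 and 809.9 CPM with solvent and 847, 974 and 912 CPM in starved cells. COL18A1, whose cleaved end is endostatin, had 26.3, 15.7 and 20.7 CPM with DMA, 31.2, 22.7 and 13.6 CPM with C646, 13.0, 13.4 and 18.4 CPM with solvent and 22.5, 15.7 and 10.7 CPM in starved cells. Between the groups compared, COL18A1 and TIMP2 overlapped in every pair. LOXL2, a lysyl oxidase family member, had 526, 185 and 349.6 CPM with DMA, 356, 206 and 320.0 CPM with C646, 471, 307 and 409 CPM with solvent and 461, 240.5 and 368 CPM in starved cells, and its library 2 was the lowest in every group.

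Part of the variation of these genes followed the library numbers. For each gene the variance of log2(CPM + 0.5) over the 12 libraries was divided into a share between the 4 groups, a share between numbers 1, 2 and 3 and the rest. The median shares over the 48 genes were 40.0% between groups, 39.9% between numbers and 11.2% for the rest. Over all 15263 genes tested the medians were 53.2%, 17.3% and 20.6%. The number took more than the group in 22 of the 48 genes (45.8%), beside 24.3% of all genes. Library 1 was the highest of its group in all 4 groups for 19 of the 48 genes (39.6%), beside 5.35% of all genes. These 19 include the collagens COL5A2, COL4A1, COL4A2, COL6A1, COL8A1, COL12A1 and COL13A1, the glycoproteins FBN1, FBN2, SPARC and TNC, and the integrin chains ITGA2, ITGA6 and ITGAV. The labels do not say what libraries of a number share, and what the numbers stand for was not tested.

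COL8A1, a short-chain collagen of Descemet's membrane and vessel walls, showed this most. It had 619, 337 and 237 CPM with DMA, 513, 409 and 266 CPM with C646, 529, 365 and 241 CPM with solvent and 518, 356 and 269 CPM in starved cells. Library 1 was highest and library 3 lowest in each group, so that 95.4% of the variance lay between numbers and 0.479% between groups. ITGA4, the alpha chain of a receptor for fibronectin and VCAM1, had 89.9% between numbers, and COL4A2 had 87.2%. At the other end, 95.3% of the variance of ADAMTS15, 92.8% of that of COL6A3, 91.3% of that of ITGA5 and 87.6% of that of TIMP1 lay between groups. FN1, whose values in the 4 groups overlap, had 79.2% between numbers.

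**Figure D5:**
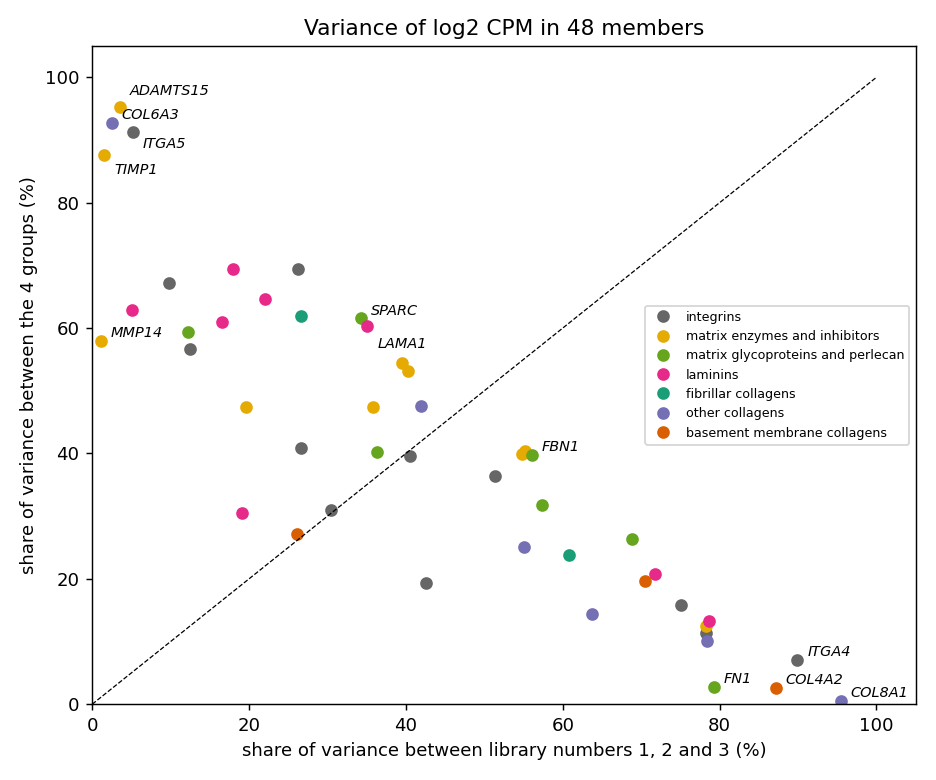
Share of the variance of log2(CPM + 0.5) between library numbers (x axis, %) and between groups (y axis, %) for the 48 tested genes, coloured by role, with the dashed line at equal shares. ADAMTS15, COL6A3, ITGA5 and TIMP1 lie at the top left, and COL8A1, ITGA4, COL4A2 and FN1 at the bottom right.

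The quantified transcript make-up of COL6A3 is given without a test. Of its 14 transcripts, ENST00000353578 led, with a mean share of the gene's TPM of 47.1% with DMA, 44.5% with C646, 41.8% with solvent and 22.0% in starved cells, and a range over libraries of 11.9% to 55.5%. These shares are the deposited estimates. For comparison, the leading ITGB1 transcript kept 88.5% to 94.0% of its gene's TPM in the 12 libraries, and the leading one of the 27 FN1 transcripts kept 27.0% to 38.6%. Other genes of the 48 ranged as widely as COL6A3. The leading share was 28.5% to 79.4% for COL18A1, 23.0% to 68.1% for ITGA1 and 0.003% to 60.1% for LAMA4. COL6A3 had only 309, 146 and 104 expected counts in the starved libraries. Only ITGB3 among the 48 genes is uncertain by sequence, since 51.6% of its exon bases overlap another gene on the same strand. It had 3.01, 1.03 and 2.52 CPM with DMA, 3.19, 2.94 and 4.94 CPM with C646, 3.83, 1.42 and 2.59 CPM with solvent and 4.01, 3.18 and 4.13 CPM in starved cells.

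Related genes outside the 54 were read from lists of other collagens, basement membrane proteins, glycoproteins, matrix enzymes, receptors, integrin adaptors and TGF-beta components, with 101 of 122 tested. On refeeding with solvent 10 of the 101 rose and 6 fell, a smaller share than the 24.3% of all genes (12.6% higher and 11.7% lower), and 4 of 15 integrin adaptors rose and none of the 15 fell. The largest rises among the adaptors, which link integrins to actin, were those of TNS1 and ZYX. TNS1 averaged 81.3 ± 10.4 CPM with solvent, against 38.5 ± 4.80 CPM in starved cells (log2 fold change 1.08 ± 0.25, edgeR adjusted p = 0.0083), and ZYX averaged 587 ± 119 CPM, against 392 ± 51.6 CPM (log2 fold change 0.58 ± 0.16, edgeR adjusted p = 0.018). The other 2, VCL and PXN, are named after their values were seen. DDR2, a receptor for fibrillar collagen, averaged 149 ± 22.5 CPM with solvent, against 615 ± 126 CPM in starved cells (log2 fold change -2.05 ± 0.23, edgeR adjusted p = 9.0e-05). SERPINH1, the collagen chaperone HSP47, averaged 339 ± 24.2 CPM with solvent, against 211 ± 66.5 CPM in starved cells (log2 fold change 0.68 ± 0.17, edgeR adjusted p = 0.011). DMA against solvent called 0 of the 101 by edgeR, with 10 at an unadjusted p under 0.05, 1 by DESeq2 and 7 with the block. Of all genes, 1.75% were called by edgeR there and 10.2% with the block, and DESeq2 called 1077 genes. With the block C646 against solvent called 7 of the 101, beside 7.86% of all genes. Without it 1 was called, beside 1.21% of all genes. That gene was SMAD3, a transducer of TGF-beta signals, at 113 ± 22.0 CPM with C646, against 249 ± 53.0 CPM with solvent (log2 fold change -1.14 ± 0.24, edgeR adjusted p = 0.042). Between DMA and C646, SMAD3 and the integrin adaptor TNS3 were higher with DMA, by 1.31 and 0.99 on the log2 scale, and the kindlin gene FERMT2 and the secreted phosphoprotein gene SPP1 were lower, at -0.61 and -1.32 (edgeR adjusted p = 0.014, 0.013, 0.041 and 0.039). These 4 of the 101 stand beside 2.89% of all genes. With the block 15 of the 101 differed between the inhibitors, beside 9.81% of all genes (3.96% higher and 5.85% lower).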

How the data were processed

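Poly-A RNA of RPE-1 cells was sequenced in 12 libraries with a TruSeq Stranded mRNA kit, per the labels' protocols, and the submitters' processing notes name Trimmomatic 0.36, STAR 2.7.0e and the build GRCh38.p10. Which program made the estimates, with which annotation and strand setting, is not given in the sources used here. Per the file headers, the deposited tables give expected counts, TPM and an effective length for each of 182164 transcripts. Of these, 92 are spike-in sequences whose amount the labels do not state, 264 matched no GENCODE 29 transcript, and 181808 were summed to 43481 genes. The design assumed whole counts, so the summed expected counts were rounded.

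After a low-count filter (filterByExpr at a count of 10 and a total of 15), 15263 genes were scaled by TMM and tested with edgeR 4.0.16 (robust quasi-likelihood F-test, all 12 libraries in 1 fit) in R 4.3.3. p-values were adjusted by the Benjamini-Hochberg method across the 15263 genes, and calls are those under 0.05. TPM served for levels between genes. A gene was called uncertain where over 20% of its exon bases or 31-base words are shared with another gene. The fit was tested on simulated data.

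All 54 genes may be named, and of each related list up to 2 per direction with the largest change among those called. The genes, lists and tests were chosen with earlier results of these data known. Alternatives were DESeq2 1.42.0, its size factors, spike-in scaling, no filter, a stricter filter of 1 CPM, only the groups compared, leaving out each library and the library number as a block. The numbers come from the labels. Deviations from group means correlated above 0.1 for all 3 same-number pairs in 5 of 6 comparisons (0.276 to 0.483 between refed groups), which counts as pairing. Solvent with starved cells had 0.0957, 0.33 and 0.182 and was not counted as paired. The block was 1 factor in a fit of all 12 libraries, so it also acted on this comparison. Promoters are from RefSeq. No sample or table was left out.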

Additional observations from a re-analysis of the deposited data

How the results depend on the processing

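Each count of calls among the 48 genes was recomputed under every alternative. For solvent against starved cells, 11 genes passed, 17 with the replicate block, 18 with the block and without solvent library 1, and 5 to 11 without any 1 library (5 without starved library 2, 6 without solvent library 2, 7 without solvent library 1). Over all genes the counts were 3704, 4570 with the block and without solvent library 1, and 2270 to 3447 without any 1 library. THBS1 lost its call with the block (edgeR adjusted p = 0.08), and the added genes included COL4A1 at 0.52, FBN1 at -0.62 and FBN2 at -0.76 on the log2 scale (edgeR adjusted p = 0.026, 9.0e-04 and 0.0023). The block called 38 of the 101 related genes there, 22 higher and 16 lower, and 5451 of all 15263 genes. The numbers do not count as paired there, although each solvent library correlated best with its own number. For DMA against solvent, 2 passed, 5 by DESeq2, 9 with the replicate block, 6 with the block and without solvent library 1, 1 with only these groups and 0 to 1 without any 1 library (0 without solvent library 1 or DMA library 2). All-gene counts were 267, 1077 by DESeq2, 1560 with the block and 476 with it and without solvent library 1. They were 31 with only these groups and 1 to 286 without any 1 library. For C646 against solvent, 0 passed, 1 by DESeq2 and with no filter (ITGA5), 4 with the replicate block, 1 with the block and without solvent library 1, and 0 without any 1 library. All-gene counts were 185, 849 by DESeq2, 348 with no filter and 1199 with the block. They were 322 with the block and without solvent library 1, and 24 to 134 without any 1 library. For DMA against C646, 3 passed, 6 by DESeq2, 1 with no filter, 11 with the replicate block, 1 with only these groups and 0 to 2 without any 1 library. All-gene counts were 441, 1037 by DESeq2, 495 with no filter and 1498 with the block. They were 140 with only these groups and 180 to 316 without any 1 library. For DMA against starved cells, 10 passed, 23 with spike-in scaling, 18 with the replicate block and 7 to 9 without any 1 library. All-gene counts were 4109, 6574 with spike-in scaling, 5914 with the block and 3005 to 3480 without any 1 library. For C646 against starved cells, 7 passed, 22 with spike-in scaling, 18 with the replicate block and 4 to 9 without any 1 library. All-gene counts were 3750, 5220 with spike-in scaling, 5531 with the block and 2511 to 3221 without any 1 library. The cause of these shifts was not tested, except that spike-in scaling moves all genes by construction.

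Scaling to the spike-ins reversed some log2 fold changes. For solvent against starved cells, TNC came to 0.16, MMP2 to 0.31, LOX to 0.14 and LAMB2 to 0.072. For DMA against starved cells, ITGA3 came to 0.44, LOX to 0.11, FBN2 to 0.32 and PLOD2 to 0.49, and for C646 against starved cells LAMB1 came to 0.22 and FBN2 to 0.033. COL6A3, ITGA5, TIMP1 and ADAMTS15 kept their direction in all 3 comparisons with starved cells under the alternatives run. Every library's value of COL6A1, ITGB3 and ADAMTS15 lay above the floor of 0.104 to 0.201 CPM before scaling, and no value speaks for the 6 genes below the filter.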
